A study of Mus musculus with 23 samples.

Results

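Ephrins are membrane-bound ligands that pass signals between touching cells, and their mRNA levels were examined here in mouse embryonic stem cells (ESCs) from which part of KDM2B had been removed. The family comprises 8 genes, Efna1, Efna2, Efna3, Efna4, Efna5, Efnb1, Efnb2 and Efnb3, which were taken by gene symbol out of 23369 gene names in the RNA-seq tables. Each of the 8 was represented by 1 row in every table, no locus of the 8 overlapped that of another gene, and all 8 passed the filter on low values. Efna3 was selected on its lower FPKM in the tamoxifen samples of this same comparison, so its values are given as a description without a test, whereas the other 7 ligands were tested together with all genes.

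The ESCs carried loxP sites in both Kdm2b alleles and one Rosa26 allele expressing a tamoxifen-inducible Cre recombinase (Gt(Rosa26)Sor-ERT2Cre). The labels name them MS12 KDM2Bfl/fl ES cells, while the methods use MS12 for the ESCs in which the allele was made and derive the lines with Cre from matings of the resulting mice. KDM2B is a component of a variant polycomb repressive complex 1 that binds unmethylated CpG dinucleotides through its ZF-CxxC zinc finger, and recombination removes the exon that encodes most of this finger while the remaining protein is still made. Of the 23 samples of the series, 6 are RNA-seq samples of polyA+ RNA, and these are the ones examined here: 3 labelled untreated and 3 labelled as given tamoxifen for 72 hr. Both groups carried the floxed alleles and the Cre, the labels give the same cell line for both, both had been kept on mitotically inactivated fibroblast feeders, and there was no tamoxifen-treated group without the floxed alleles, so that removal of the exon and exposure to tamoxifen cannot be told apart. The sample labels give the 4-hydroxytamoxifen concentration as 800 nM and the series text as 800 µM. Each sample was placed in its group by its label. The deposited file names read the other way round for all 6 samples, and under that reading the sign of every difference below would be exchanged.

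Ephrin-A ligands are held in the outer leaflet of the membrane by a GPI anchor and mainly bind EphA receptor tyrosine kinases, while ephrin-B ligands span the membrane and mainly bind EphB receptors. Binding drives forward signalling in the cell with the receptor and reverse signalling in the cell with the ligand. The system is best known for repulsion between cells, in axon guidance, in the formation of tissue boundaries and in vessel growth, and Efna1, Efna3 and Efna4 lie side by side in the genome.

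Efna3 (chr3:89118873-89126801 in mm9), Efna4 (chr3:89137315-89141950) and Efna1 (chr3:89075652-89084873) are protein-coding genes read from the minus strand of chromosome 3. The start of Efna4 lies 15.1 kb upstream of the Efna3 start and that of Efna1 lies 41.8 kb downstream of it. The other ligand loci are Efna2 at chr10:79642227-79652755 on the plus strand, Efna5 at chr17:62952306-63230666 on the minus strand, Efnb1 at chrX:96331469-96344330 on the plus strand, Efnb2 at chr8:8617439-8660773 on the minus strand and Efnb3 at chr11:69367594-69373739 on the minus strand.

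As the exon removed encodes a CpG-binding domain, the 250 bases upstream of the start of 4 ligand genes are shown, those of the chromosome 3 neighbours and of Efna2, the ligand nearest to Efna3 in its pattern over the 6 samples. They were read 5′ to 3′ on the strand of the gene from the NCBIM37 (mm9) assembly, with every CG dinucleotide in capitals.
Efna3 (chr3:89126888-89127137, minus strand): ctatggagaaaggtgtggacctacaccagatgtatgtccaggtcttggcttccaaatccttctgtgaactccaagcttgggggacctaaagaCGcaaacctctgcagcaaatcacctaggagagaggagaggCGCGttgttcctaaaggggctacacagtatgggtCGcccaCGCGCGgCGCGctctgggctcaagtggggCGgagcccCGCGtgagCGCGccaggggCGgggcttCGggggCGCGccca
Efna4 (chr3:89141951-89142200, minus strand): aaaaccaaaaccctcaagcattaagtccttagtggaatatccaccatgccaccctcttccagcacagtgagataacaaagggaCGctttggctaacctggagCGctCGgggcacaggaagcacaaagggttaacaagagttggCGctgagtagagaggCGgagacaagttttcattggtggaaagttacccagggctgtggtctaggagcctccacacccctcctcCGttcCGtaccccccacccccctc
Efna1 (chr3:89085065-89085314, minus strand): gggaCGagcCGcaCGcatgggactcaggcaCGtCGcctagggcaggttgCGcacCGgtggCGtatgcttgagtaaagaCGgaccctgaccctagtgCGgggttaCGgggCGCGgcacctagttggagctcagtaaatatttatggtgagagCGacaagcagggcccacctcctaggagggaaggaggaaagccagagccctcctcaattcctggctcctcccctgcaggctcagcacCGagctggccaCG
Efna2 (chr10:79641977-79642226, plus strand): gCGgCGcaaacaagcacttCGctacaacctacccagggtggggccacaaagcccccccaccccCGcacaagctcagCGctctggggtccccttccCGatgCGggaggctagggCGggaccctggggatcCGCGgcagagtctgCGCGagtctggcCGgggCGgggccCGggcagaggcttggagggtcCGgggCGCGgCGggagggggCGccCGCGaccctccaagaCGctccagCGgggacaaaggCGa
CG dinucleotides numbered 18 upstream of Efna3, 7 upstream of Efna4, 16 upstream of Efna1 and 25 upstream of Efna2. The remaining ligands held 32 (Efna5), 28 (Efnb2), 22 (Efnb3) and 13 (Efnb1). The motif CG, which reads the same on both strands, was present in 99% of upstream windows of this length among 12210 tested genes, with a median of 14 per window. At least as many as upstream of Efna3 were found for 38.3% of these genes, and at least as many as upstream of Efna4 for 79.8%. In the 1000 bases centred on the start, 7 of the 8 ligands were CpG-rich (observed over expected CpG of at least 0.6 and GC content of at least 55%), with the ratio of Efnb3 at 0.58, whereas 59.7% of the tested genes were. Thus Efna3 was not set apart from its relatives by this measure. KDM2B binding was not analysed here.

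Expression is given as FPKM, the number of sequenced fragments scaled by transcript length and by library size, which allows levels to be compared between genes. In untreated ESCs the ligands were present at low to moderate levels, from a mean of 3.28 FPKM for Efnb3 to 19.6 FPKM for Efnb2. The order by mean was Efnb2, Efna4, Efna3, Efna2, Efna5, Efna1, Efnb1 and Efnb3. Each of the first 4 lay above the next gene in 3 of 3 untreated samples, although Efna2 and Efna5 were nearly equal in replicate 3. From Efna5 down, neighbours in the order changed places between samples. In the tamoxifen group the order by mean was Efnb2, Efna4, Efnb1, Efna2, Efna3, Efna1, Efna5 and Efnb3, and only Efna4 over Efnb1 and Efna5 over Efnb3 held in 3 of 3 samples. Efna3 thus stood at rank 3 in the untreated group and at rank 5 after tamoxifen.

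Efna3, which encodes the GPI-anchored ligand ephrin-A3, was listed at 11.2, 10.4 and 7.24 FPKM in untreated replicates 1 to 3 and at 4.82, 3.91 and 3.17 FPKM in tamoxifen replicates 1 to 3. All 3 treated samples lay below all 3 untreated samples. The means were 9.59 ± 2.08 and 3.97 ± 0.82 FPKM (SD, n = 3), a ratio of 2.42-fold. On the scale of log2(FPKM + 0.1), on which all log2 differences here are given, the difference was -1.25, and it was -1.20, -1.39 and -1.17 within replicate numbers 1, 2 and 3. This is the difference for which the gene was selected. The value for untreated replicate 1 lay outside its own deposited confidence interval, the only such case among the 48 ligand values.

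Of the other 7 ligands, 3 passed the test as lower after tamoxifen once the replicate number was entered as a block: Efna2 and Efna5 among the ephrin-A ligands and Efnb2 among the ephrin-B ligands. Efna4, Efna1 and Efnb3 had lower means that did not pass, and Efnb1 a higher mean that did not pass. Samples with the same number in both groups deviated together over all genes, and without the block none of the 7 passed (limma, adjusted p between 0.676 and 0.999). Among all 12997 genes tested, limma called 0.0308% without the block. With the block it called 10.4% in either direction and 6.06% as lower. All 3 calls held without replicate number 1 and without number 3 but not without number 2, where the adjusted p (limma with the block) was 0.116 for Efna2, 0.173 for Efna5 and 0.125 for Efnb2. Over all genes, 43 were called lower without number 2, against 1011 without number 1, 478 without number 3 and 787 with all samples.

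**Figure D1:**
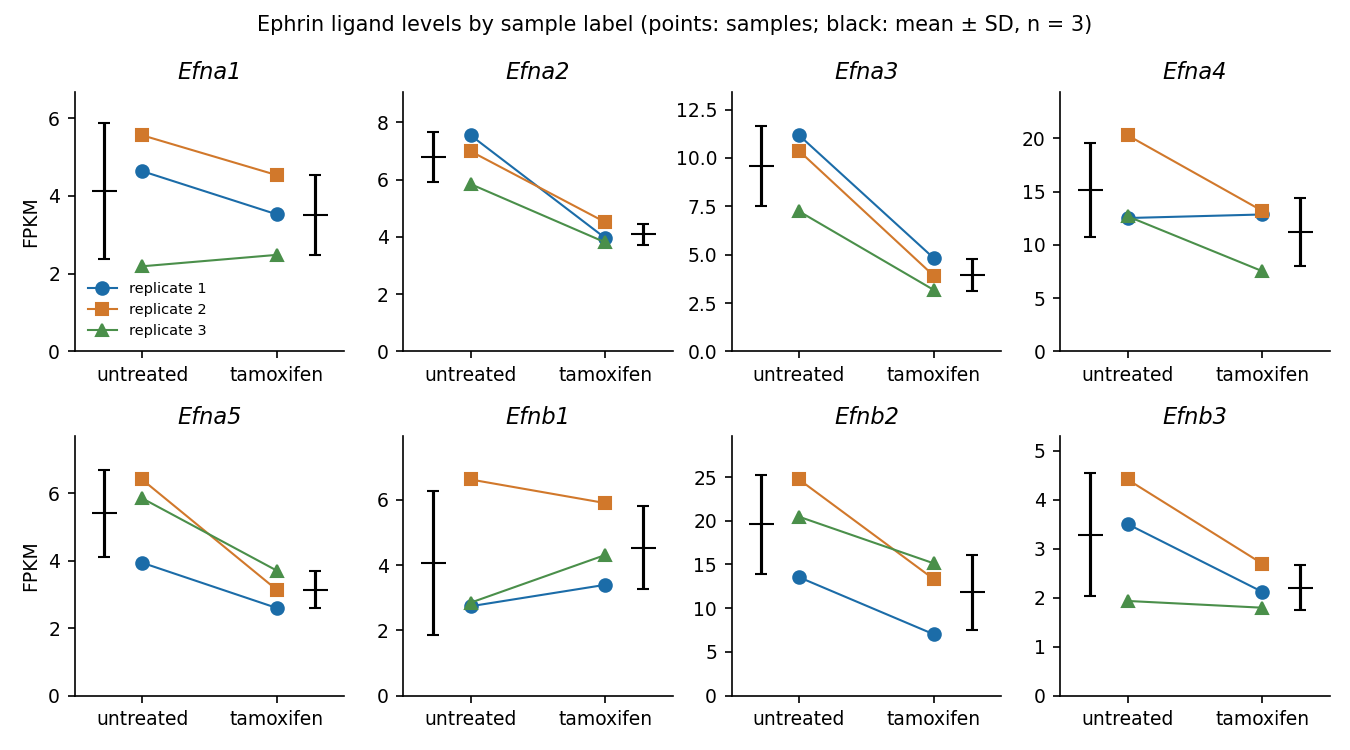
FPKM of the 8 ephrin ligands (y axis, from 0, separate scale per gene) in the untreated and tamoxifen samples (x axis). Coloured symbols are samples, lines join samples with the same replicate number, and black marks give the mean ± SD of 3 samples. The 3 treated samples lie below the 3 untreated ones for Efna2, Efna3 and Efna5.

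Efna2 encodes ephrin-A2, a GPI-anchored ligand with a part in the mapping of retinal axons. It was listed at 7.55, 7.0 and 5.85 FPKM in the untreated replicates and at 3.96, 4.51 and 3.81 FPKM after tamoxifen, with no overlap between the groups. The mean went from 6.80 ± 0.87 to 4.09 ± 0.37 FPKM (SD, n = 3), a log2 difference of -0.71 with a 95% confidence interval of -1.01 to -0.42 in the fit with the block (limma, adjusted p = 0.0161).

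Efna5, which encodes ephrin-A5, a relative of ephrin-A2 in axon mapping, was listed at 3.94, 6.40 and 5.85 FPKM in the untreated replicates and at 2.60, 3.13 and 3.70 FPKM after tamoxifen. These groups did not overlap either, although untreated replicate 1 lay close to tamoxifen replicate 3. The mean went from 5.40 ± 1.29 to 3.14 ± 0.55 FPKM (SD, n = 3), and the log2 difference was -0.75 with an interval of -1.07 to -0.42 (limma with the block, adjusted p = 0.0196).

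Efna4 and Efna1 share the neighbourhood of Efna3, and neither passed the test. Efna4, which encodes ephrin-A4, was listed at 12.5, 20.3 and 12.7 FPKM in the untreated replicates and at 12.8, 13.2 and 7.53 FPKM after tamoxifen. The groups overlapped: within replicate number 1 the difference was 0.04, against -0.62 and -0.75 within numbers 2 and 3. The log2 difference was -0.44 with an interval of -0.81 to -0.07 (limma with the block, adjusted p = 0.115). The value moved with each replicate number left out. It was -0.68 without number 1, -0.35 without number 2 and -0.29 without number 3 (limma with the block, adjusted p = 0.00238, 0.4 and 0.36). Efna4 thus passed only without number 1, where 1011 of all genes were called lower, against 787 with all samples.

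Efna1 encodes ephrin-A1, a ligand of the receptor EphA2. It was listed at 4.64, 5.56 and 2.19 FPKM in the untreated replicates and at 3.52, 4.53 and 2.48 FPKM after tamoxifen. Replicate 3 was lowest in both groups, and within that number the treated sample was the higher one. The log2 difference was -0.17 with an interval of -0.52 to 0.19 (limma with the block, adjusted p = 0.495), and its sign turned when untreated replicate 2 or tamoxifen replicate 3 was left out. The bounds with the block leave room for a modest change in either direction. Without the block the interval was wider, from -1.05 to 0.72. Neither interval holds the -1.25 listed for Efna3, a difference for which that gene was selected.

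Among the ephrin-B ligands, Efnb2 encodes ephrin-B2, known for its role in the separation of arteries from veins, and was the most abundant ligand in both groups. It was listed at 13.5, 24.7 and 20.5 FPKM in the untreated replicates and at 7.02, 13.3 and 15.1 FPKM after tamoxifen. The groups overlapped, because untreated replicate 1 lay below tamoxifen replicate 3, yet within each number the treated sample was lower, by log2 differences of -0.94, -0.89 and -0.43. The mean difference was -0.75 with an interval of -1.05 to -0.46 (limma with the block, adjusted p = 0.0138).

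Efnb3, which encodes ephrin-B3, a ligand of the developing nervous system, was listed at 3.50, 4.41 and 1.93 FPKM in the untreated replicates and at 2.12, 2.69 and 1.80 FPKM after tamoxifen. The treated sample was the lower one within all 3 numbers, but by only -0.10 on the log2 scale within number 3. The log2 difference was -0.50 with an interval of -0.90 to -0.10 (limma with the block, adjusted p = 0.106).

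Efnb1, the X-linked gene of ephrin-B1, was listed at 2.74, 6.63 and 2.85 FPKM in the untreated replicates and at 3.40, 5.90 and 4.31 FPKM after tamoxifen. Replicate 2 was the highest of each group, and the treated sample was higher within numbers 1 and 3. The log2 difference was 0.24 with an interval of -0.14 to 0.62 (limma with the block, adjusted p = 0.36). Efnb1 was the 1 ligand whose mean was higher after tamoxifen.

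**Figure D2:**
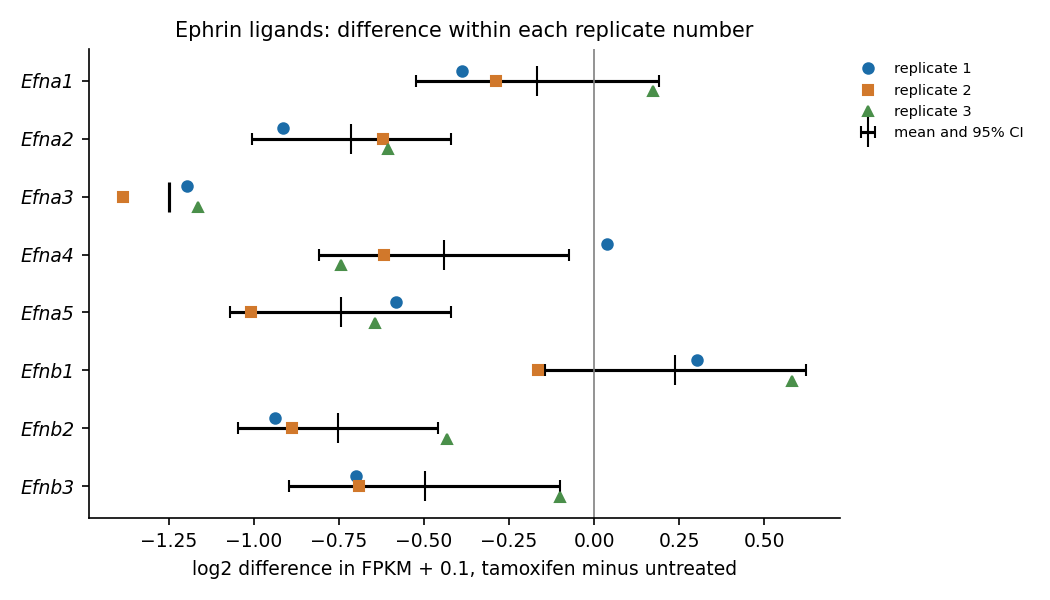
Difference in log2(FPKM + 0.1), tamoxifen minus untreated (x axis), for each ephrin ligand (y axis). Coloured symbols are the differences within replicate numbers, black ticks the means and horizontal bars the 95% confidence intervals of the fit with the replicate block, drawn for the 7 ligands that were tested. The 3 differences of Efna3 lie between -1.39 and -1.17, while those of Efna4 spread from -0.75 to 0.04.

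Counted over the family, groups did not overlap, with tamoxifen lower, for Efna3 and for 2 of the other 7 ligands, against 5.4% of all genes tested. The treated sample was lower within 3 of 3 numbers for Efna3 and for 4 of the other 7, against 28.2% of all genes. No ligand had 3 higher differences. The median log2 difference was -0.50 over the 7 ligands other than Efna3, and -0.02 over all genes. Summed over the 8 ligands, the level was 59.6, 85.4 and 59.0 FPKM in the untreated replicates and 40.3, 51.2 and 41.9 FPKM after tamoxifen. The sum over the ephrin-A ligands went from 41.1 ± 7.98 to 25.9 ± 4.57 FPKM and that over the ephrin-B ligands from 26.9 ± 8.12 to 18.6 ± 5.23 FPKM (SD, n = 3). These sums include Efna3. With 3 samples a group, an exact two-sided permutation test cannot give a p below 0.1, and 3 pairs cannot give one below 0.25, so none is reported for single values.

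The question whether the difference of Efna3 extended to its surroundings was examined over the 31 other genes whose loci overlap the 250 kb on each side of it, Efna1 and Efna4 included. Of these, 27 passed the filter and none passed the test without the block (limma). With the block 4 were lower and 1 was higher, and 22 did not pass, where 10.4% of all genes were called and 6.06% as lower. The median log2 difference of the 27 was -0.18, against -0.02 over all genes.

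Adam15, a membrane metalloprotease gene that begins 27.0 kb upstream of the Efna3 start on the other side of Efna4, went from 16.3 ± 5.78 to 11.3 ± 3.25 FPKM, a log2 difference of -0.51 (limma with the block, adjusted p = 0.0237). Its 3 differences, -0.43, -0.61 and -0.48, lay close together although the groups overlapped. Zbtb7b, the gene of a zinc finger transcription factor known for CD4 T cell commitment, begins 71.8 kb upstream and went from 9.07 ± 0.59 to 5.61 ± 0.39 FPKM without overlap, a log2 difference of -0.68 (limma with the block, adjusted p = 0.0162). Pbxip1, whose product binds PBX homeodomain proteins, begins 113.7 kb upstream and had a log2 difference of -0.58 (limma with the block, adjusted p = 0.0384). Rusc1, an adaptor protein gene that begins 229.6 kb downstream, had one of -0.48 (limma with the block, adjusted p = 0.0416). Fdps, the gene of farnesyl diphosphate synthase in the isoprenoid pathway, begins 221.0 kb downstream and was higher, by 0.46 on the log2 scale (limma with the block, adjusted p = 0.0253). After quantile normalization only Adam15 and Zbtb7b of these 5 passed, and without replicate number 2 or number 3 none of the 5 did.

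**Figure D3:**
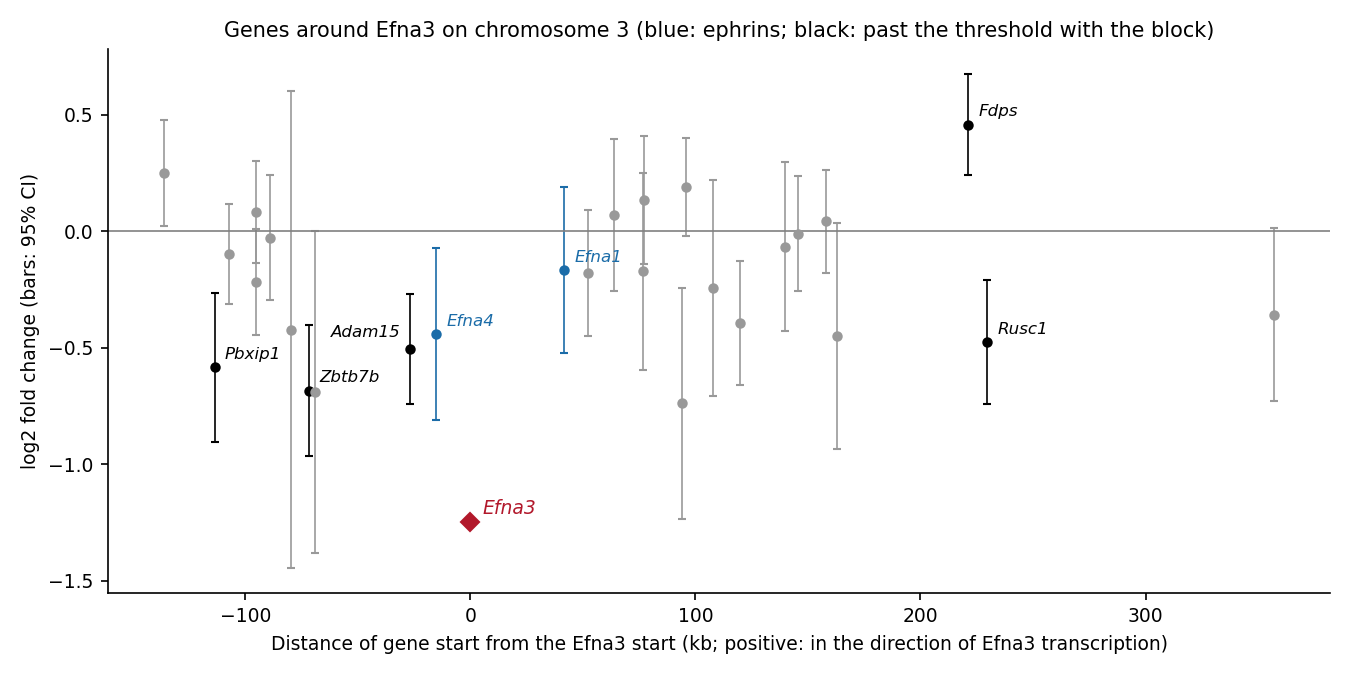
Log2 fold change, tamoxifen over untreated (y axis), of the tested genes around Efna3 against the distance of their start from the Efna3 start in kb (x axis, positive in the direction in which Efna3 is transcribed). Bars are 95% confidence intervals of the fit with the replicate block, with none drawn for Efna3, blue marks Efna4 and Efna1, and black marks genes past the threshold. The Efna3 point, at -1.25, lies below the points of all 27 other genes, but Efna3 was selected for this difference. Genes on both sides of it lie near 0.

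Between Efna3 and Adam15 lies Efna4, which did not pass with all samples (limma with the block, adjusted p = 0.115). On the other side, the nearest gene past Efna1 is Slc50a1, a sugar transporter gene, with a log2 difference of -0.18 (limma with the block, adjusted p = 0.328). Krtcap2, 77.0 kb downstream, was at 0.13 (adjusted p = 0.479), and Trim46, 76.7 kb downstream, at -0.17 (adjusted p = 0.551). Muc1, which encodes a membrane mucin and begins 93.9 kb downstream, was at -0.74 from low levels of 1.61 ± 0.86 and 0.86 ± 0.25 FPKM and did not pass (limma with the block, adjusted p = 0.068). Upstream, Gm15417, which begins 68.9 kb away, was at -0.69 and Lenep, 79.8 kb away, at -0.42. Both were at low levels and neither passed (limma with the block, adjusted p = 0.168 and 0.546). Within replicate numbers 1, 2 and 3 the differences were -0.002, -1.09 and -0.98 for Gm15417. Those for Lenep were 1.09, -0.98 and -1.38. Flad1, 88.9 kb upstream, was at -0.03. The points of the neighbourhood plot therefore do not fall off evenly with distance from Efna3.

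Likeness to Efna3 over the 6 samples was measured as the root mean square difference of log2(FPKM + 0.1) after the mean of each gene was subtracted. The nearest of 12996 genes were Rtn4rl1 (0.14 log2 units), Bai1 (0.15), Pnmal2 (0.15), Btbd17 (0.18) and B3gnt8 (0.18), while the median over all genes was 0.75. Rtn4rl1 encodes a Nogo receptor relative and was listed at 2.82, 2.85 and 1.75 FPKM in the untreated replicates and at 1.16, 1.25 and 0.83 FPKM after tamoxifen. Bai1, now called Adgrb1, encodes an adhesion G protein-coupled receptor and was at 1.76, 1.99 and 1.40 FPKM before and 0.69, 0.74 and 0.56 FPKM after. None of the 5 lies on chromosome 3, and B3gnt8 passed the filter of 0.5 FPKM only through the untreated samples. Among the ligands, Efna2 ranked 88 with 0.33 log2 units, followed by Efnb3 at rank 385, Efna4 at 538, Efna5 at 806, Efna1 at 2075, Efnb2 at 3345 and Efnb1 at 11205. These ranks describe 6 samples, and they largely follow the group difference for which Efna3 was selected.

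**Figure D4:**
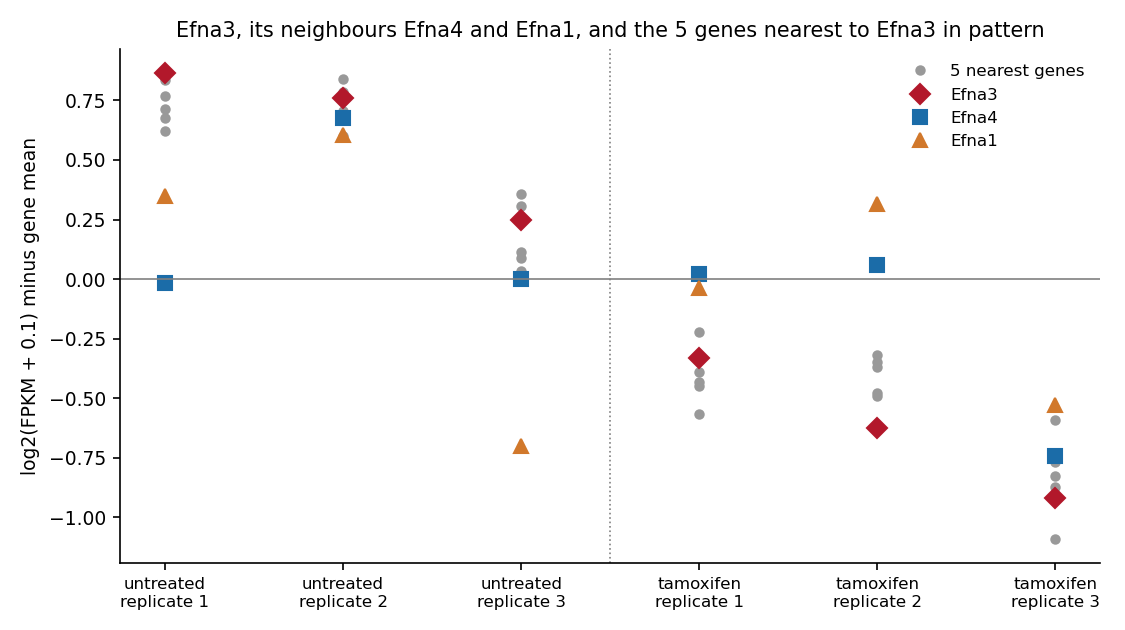
Level of each gene in each of the 6 samples (x axis) as log2(FPKM + 0.1) minus the mean of the gene (y axis). Diamonds are Efna3, squares Efna4, triangles Efna1 and grey points the 5 genes nearest to Efna3. The grey genes were chosen for their likeness to Efna3. Efna3 and the grey points are above 0 in the 3 untreated samples and below 0 in the 3 treated ones. Efna1 is lowest in untreated replicate 3.

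Eph receptors, the binding partners of the ligands, were listed for 14 genes, of which 9 passed the filter. Epha3, Epha5, Epha6, Epha10 and Ephb1 did not, with means of at most 0.21 FPKM in either group. Of the 9, none passed without the block (limma) and 1 passed with it, a share near the 10.4% of all genes called. This was Epha2, the receptor of ephrin-A1 and the most abundant Eph receptor in these cells. It was listed at 48.1, 134.1 and 74.8 FPKM in the untreated replicates and at 22.0, 78.0 and 50.5 FPKM after tamoxifen. The groups overlapped widely, since untreated replicate 1 lay below tamoxifen replicates 2 and 3, but within each number the treated sample was lower, by log2 differences of -1.13, -0.78 and -0.57. The mean difference was -0.82 with an interval of -1.10 to -0.54 (limma with the block, adjusted p = 0.0103, and 0.0872 without replicate number 2).

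The other A-class receptors did not pass. Epha4, which binds ligands of both classes, went from 4.36 ± 2.04 to 2.92 ± 1.08 FPKM, a log2 difference of -0.50 (limma with the block, adjusted p = 0.0686). Epha7 was at -0.32, Epha1 at -0.23 and Epha8 at -0.15, and their intervals all included 0. The B-class receptors with the higher levels showed small positive differences: 0.13 for Ephb4 with an interval of -0.13 to 0.40, 0.12 for Ephb3 with one of -0.13 to 0.37, and 0.10 for Ephb2 with one of -0.24 to 0.44. Ephb6, whose product lacks kinase activity, was at -0.29 with an interval of -0.65 to 0.08. The median log2 difference of the 9 receptors was -0.23, against -0.02 over all genes.

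**Figure D5:**
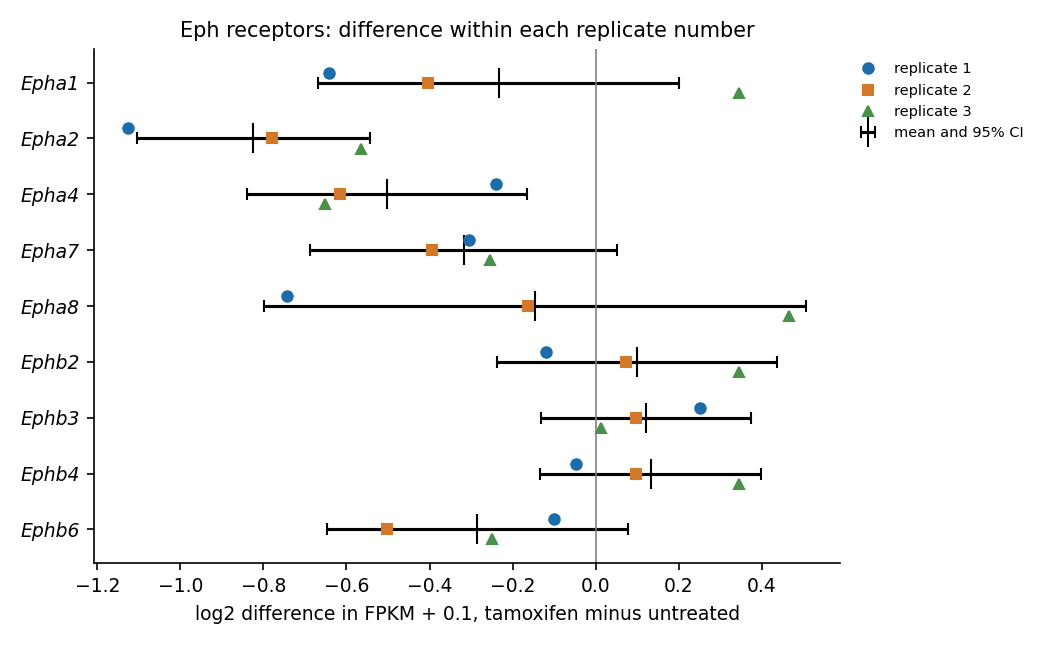
Difference in log2(FPKM + 0.1), tamoxifen minus untreated (x axis), for the 9 Eph receptors that passed the filter (y axis). Coloured symbols are the differences within replicate numbers, black ticks the means and bars the 95% confidence intervals of the fit with the replicate block. The interval of Epha2 runs from -1.10 to -0.54, and those of the B-class receptors all include 0.

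Further genes of the pathway were called, in each list, at a share near or below the 10.4% of all genes called with the block. Of 11 genes for reverse signalling, such as adaptor proteins that bind the tail of ephrin-B ligands, 10 were tested and 1 passed with the block. This was Grip1, a PDZ-domain scaffold gene, which was listed at 2.12, 1.89 and 3.03 FPKM in the untreated replicates and at 1.35, 1.30 and 1.67 FPKM after tamoxifen, a log2 difference of -0.65 (limma with the block, adjusted p = 0.0446). Its groups did not overlap, and the call was lost without replicate number 2 or number 3 and after quantile normalization. Of 13 genes for forward signalling from Eph receptors, all were tested and none passed with the block. Chn1, which encodes a Rac GTPase-activating protein downstream of EphA4 and is named after its values were seen, did pass with the block after quantile normalization, as higher (0.50 on the log2 scale, limma, adjusted p = 0.0314, against 0.43 and 0.0536 on the deposited scale). It was listed at 6.06, 4.26 and 5.43 FPKM in the untreated replicates and at 7.97, 6.10 and 7.10 FPKM after tamoxifen, without overlap. Of 3 proteases that cut ephrins or Eph receptors, 2 were tested and neither passed.

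The cells carried the marks of ESCs in both groups. All 8 ESC markers examined were well expressed and none passed the test, with summed levels of 2102 to 3427 FPKM in the untreated and 2670 to 4943 FPKM in the treated samples. Kdm2b itself was at 25.4 ± 3.36 and 22.3 ± 2.60 FPKM (limma with the block, adjusted p = 0.306). A value for the whole gene does not resolve the floxed exon, so it does not check the labels.

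Some genes that mark other cell types were also lower, where 6.06% of all genes were called lower with the block. Since these are bulk samples, fewer cells of a type and less RNA per cell cannot be told apart. Among 5 genes listed as neural progenitor markers, 4 were tested and Pax6, Sox1 and Nes were lower with the block, Pax6 from 5.65 ± 1.32 to 1.70 ± 0.79 FPKM. The remaining one, Tubb3, was at 0.15 on the log2 scale. The summed level of the list ran from 69.7 to 92.8 FPKM in the untreated and from 66.8 to 79.7 FPKM in the treated samples. Most of this sum was Tubb3, with means of 53.8 FPKM untreated and 59.4 FPKM after tamoxifen, so it says little about the other genes. Neurog2 was at or near 0 in all 6. Of 7 primitive endoderm markers, 4 were tested and Gata4 and Gata6 were lower, while Pdgfra at -0.44 and Dab2 at 0.23 on the log2 scale did not pass. Gata6 was at low levels, 1.13 ± 0.58 FPKM untreated and 0.33 ± 0.10 FPKM after tamoxifen. It passed the filter on low values only through the untreated samples, so its call is tied to that filter. The treated sample was the higher one within 3 of 3 numbers for Dab2. The list had summed levels of 7.32 to 10.7 FPKM in the untreated and 4.78 to 9.18 FPKM in the treated samples, with Foxa2 and Sox17 near 0. Of 10 fibroblast markers, included because of the feeders, 9 were tested and only Twist1 was lower. Their summed level ran from 43.9 to 108.5 FPKM in the untreated and from 48.9 to 103.3 FPKM in the treated samples, with Lum near 0. It was lowest in replicate 1 of both groups, as were the ligands Efna5, Efnb1 and Efnb2. Among the tested receptors this was so for Epha2, Epha4 and Epha7. The other ligands and tested receptors were not lowest in replicate 1 of both groups. The share of all genes with this pattern was not counted, and same-numbered samples deviated together over all genes. The part of fibroblasts or other such cells in the ligand differences was not tested.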

How the data were processed

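Per the labels and the study's methods, directional polyA+ libraries were sequenced in paired-end mode, and the authors used Tophat2 for alignment (mm9) and cuffdiff 2.1.1 for quantification over refGene models. The deposited values are FPKM per gene row with a confidence interval and a status. The study's text calls the 3 samples of a group biological triplicates. The 17 ChIP and input samples were not analysed here.

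FPKM of rows with 1 gene name were summed, and the 6 names with a failed status were left out. Genes with at least 0.5 FPKM in at least 3 samples were tested on log2(FPKM + 0.1), a scale that understates changes of low genes, with limma 3.58.1 (R 4.3.3, eBayes with trend, Benjamini-Hochberg adjustment, threshold 0.05). The design had no block, and a second fit, blocked on replicate number, is given beside it. The numbers come from the sample labels, and over all genes the deviations of same-numbered samples from their group means correlated at 0.544, 0.605 and 0.506, while differently numbered samples correlated at -0.379 to -0.105. Both fits were run on simulated data, with replicate effects added only for the fit with the block. The fit without the block was therefore not checked in the presence of such effects.

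Read totals are not in the files. Steps in low FPKM values gave relative depths of 0.654 to 0.951 against untreated replicate 1, and between 15.9% and 18.4% of low genes fell within 1% of a step, so this is a rough estimate, and no interval that needs counts is given. Between 11571 and 11980 rows per sample reached 1 FPKM.

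Genes named are the 8 ligands, the Eph receptors, the Efna3 neighbours, signalling genes past the threshold with the block, the 5 nearest to Efna3 in pattern, and Kdm2b, beside the cell type markers of fixed lists. The ligands and all gene lists were chosen with earlier results of these data known. Starts in the tables count from 0 and were raised by 1. Upstream windows begin at the outermost start in the tables or in GENCODE vM1. Alternatives were other pseudocounts, filters and scalings, the highest row per name, eBayes without trend, the log2 ratio of group means and leaving out each sample. Failed rows kept as 0, TPM without loci under 300 bp (alone or with the block) and the block without 1 replicate number were added after the data had been seen.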

Additional observations from a re-analysis of the deposited data

How the results depend on the processing

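Of the 8 ligands, 7 kept the direction of their log2 fold change under every alternative run. The exception was Efna1, at 0.093 without untreated replicate 2 and 0.055 without tamoxifen replicate 3, in a range of -0.560 to 0.093 when each sample was left out. The replicate block, which the check of same-numbered samples favoured, changed the counts most. Without it limma called 0 of the 7 ligands other than Efna3, 0 Eph receptors, 0 Efna3 neighbours, 0 signalling genes and, over all genes, 3 higher and 1 lower. With the replicate block the counts were 3 ligands, 1 receptor, 5 neighbours, 1 signalling gene, 563 higher and 787 lower. With the block and quantile normalization they were 3, 1, 2, 1, 558 and 586, with Chn1 as the signalling gene in place of Grip1, and with the block and TPM without loci under 300 bp 3, 2, 7, 2, 421 and 1187, with Epha4, Muc1 and Src among those added. Without the block, a pseudocount of 1 gave 0 genes lower, and requiring 1 FPKM in all samples gave 0 higher and 0 lower. Leaving out 1 sample gave 2 to 5 genes higher and 0 to 7 lower. With the block and without 1 replicate number, 10 of the 10 named genes other than Efna3 were still called without number 1, 0 without number 2 and 4 without number 3. Over all genes these fits called 744, 36 and 359 higher and 1011, 43 and 478 lower. The cause was not tested. The median log2 fold change of all genes was -0.019 as deposited, 0.081 after scaling to TPM and -0.105 with TPM without short loci, against -0.498, -0.404 and -0.594 over the 7 ligands other than Efna3. Relative depth was lowest in tamoxifen replicate 3. The replicates limit what can be shown for Efna1, Efna4, Efnb1 and Efnb3, whose intervals in the fit with the block are wider than those of the other ligands.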
